A study of Homo sapiens with 48 samples.

Results

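Mitochondria fold and degrade imported proteins with their own chaperones and proteases, and 10 genes of that machinery were followed here through inhibition of the cytosolic and nuclear proteasome. The members were the rows of the count matrix with the symbols HSPD1, HSPE1, HSPA9, GRPEL1, DNAJA3, TRAP1, LONP1, CLPP, CLPX and YME1L1, which are 10 of 33892 rows. They were chosen by name, as genes of mitochondrial folding and proteolysis, with earlier results of these data known. Of the 10 members, 9 had enough counts to be tested in every line, and DNAJA3 had too few in all 8.

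The study measured RNA from 8 established human cancer cell lines after carfilzomib, a drug that blocks the proteasome irreversibly, or its solvent DMSO. Per its title, the study asked about an HSP70-driven response to that inhibition. The lines were RKO and DLD-1 (colon cancer), H-23 and H-1299 (lung cancer), PANC-1 and CAPAN-2 (pancreatic cancer), and H-929 and RPMI (multiple myeloma, a cancer of plasma cells). Every line was grown in dishes and exposed for 24 h, and each of the 16 groups of line and treatment had 3 libraries that the labels call biological replicates. The p-values measure the spread between these triplicates. The drug was dosed for each line by its effect on proteasome activity, and the concentrations were not analysed here. Each line is 1 model of its tumour type. In these bulk libraries, fewer cells of a kind and less RNA per cell cannot be told apart.

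Library totals ran from 9116329 to 64369098 counts, with the lowest in H-929 after carfilzomib. All 6 plasma cell markers exceeded 1 CPM in both myeloma lines, and all 5 epithelial markers did so in DLD-1, H-23, PANC-1 and CAPAN-2. Epithelial markers were thin in RKO (3 of 5) and H-1299 (2 of 5), while the myeloma lines RPMI and H-929 had 4 of 5 and 1 of 5. Plasma cell markers reached 4 of 6 in RKO and 3 of 6 in the other lines that are not myeloma. Their sum in DMSO was 181 CPM in RKO and 558 CPM in CAPAN-2, against 7140 CPM in H-929 and 3039 CPM in RPMI. Both lung markers were under 1 CPM in H-1299, and the colon markers reached 2 of 4 in DLD-1 and 1 of 4 in RKO. These sets did not single out their tissue. Colon markers also reached 2 of 4 in H-23 and CAPAN-2, and the lung sum was highest in H-929 (42.2 CPM against 3.98 in H-23). Pancreatic duct markers reached 5 of 5 in CAPAN-2, and 4 of 5 in PANC-1, RKO, DLD-1 and H-23. CPM, the normalised level used here, scale counts to the library total times the TMM factor of edgeR, and levels of treated and control libraries were scaled within each line.

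HSPD1 (HSP60) and HSPE1 (HSP10) form the chaperonin of the mitochondrial matrix, a folding chamber and its lid. HSPA9 (mortalin) is the matrix HSP70, which pulls proteins in through the inner membrane and folds them with its J-domain partner DNAJA3 and its nucleotide exchange factor GRPEL1, and TRAP1 is the HSP90 of the matrix. LONP1 and the complex of CLPX with CLPP are ATP-driven proteases of the matrix, and YME1L1 is such a protease in the inner membrane, facing the intermembrane space. Under stress in the matrix, mammalian cells are known to raise several of these genes, and heat shock factors and factors of the ATF4 and C/EBP kind are known regulators of some of them.

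The promoter of HSPD1 is shown first because its gene lies head to head with HSPE1 and because it alone, of the member promoters in the RefSeq table, held a match to the motifs searched. The table (GRCh38.p14) gave 9 promoters of 7 members, namely HSPD1, HSPE1, HSPA9, CLPX, TRAP1, DNAJA3 and LONP1, each read over the 250 bases before the start. The HSPE1 start and the upstream HSPD1 start are on opposite strands with 104 bases between them. The first sequence below holds a run of 4 alternating heat shock units in capitals, 228 to 245 bases before the downstream HSPD1 start. These bases also lie 189 to 206 bases inside the transcribed side of the upstream HSPD1 start, and 294 to 311 bases before the HSPE1 start, outside the window read for HSPE1. The second is the part of the TRAP1 promoter outside annotated UTRs, shown because TRAP1 was the member lower in most lines. Its window held none of the motifs searched, and other elements of ATF-type factors were not searched.
HSPD1, chr2:197500061-197500090, minus strand: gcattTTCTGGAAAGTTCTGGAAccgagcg
TRAP1, chr16:3717598-3717774, minus strand: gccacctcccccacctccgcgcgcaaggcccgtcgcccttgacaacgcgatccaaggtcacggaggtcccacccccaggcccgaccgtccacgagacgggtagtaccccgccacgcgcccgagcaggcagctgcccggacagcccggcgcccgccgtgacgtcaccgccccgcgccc

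Motifs were searched on both strands. The pairs of heat shock units, GAANNTTC and TTCNNGAA, were present in 5.78% and 6.62% of 35116 promoters, and a run of at least 3 units, which contains both pairs, in 0.441%. The ATF element core TGATGNAA was present in 3.14%. Among 9 cytosolic and ER chaperone genes, 2 promoters held at least 3 units, those of HSPA8 and HSP90AA1. A match describes letters in this window and is not evidence of binding.

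Over the 72 tests of 9 members in 8 lines, carfilzomib libraries were called higher than DMSO libraries in 23, lower in 19 and not called in 30. A call is an adjusted p under 0.05 in edgeR's quasi-likelihood test of that line. Of these calls, 2 reached 2-fold: HSPE1 in H-929 and LONP1 in RPMI. The lines did not share a direction. Members rose in H-1299 (7 higher, 1 lower; 29.8% and 31.3% of all genes tested there) and CAPAN-2 (6 higher, 1 lower; 25.7% and 26.7%). They mostly fell in H-929 (2 higher, 6 lower; 26.4% and 26.2%). RPMI was mixed, with 4 higher and 3 lower beside 31.3% and 32.2% of all genes.

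**Figure D1:**
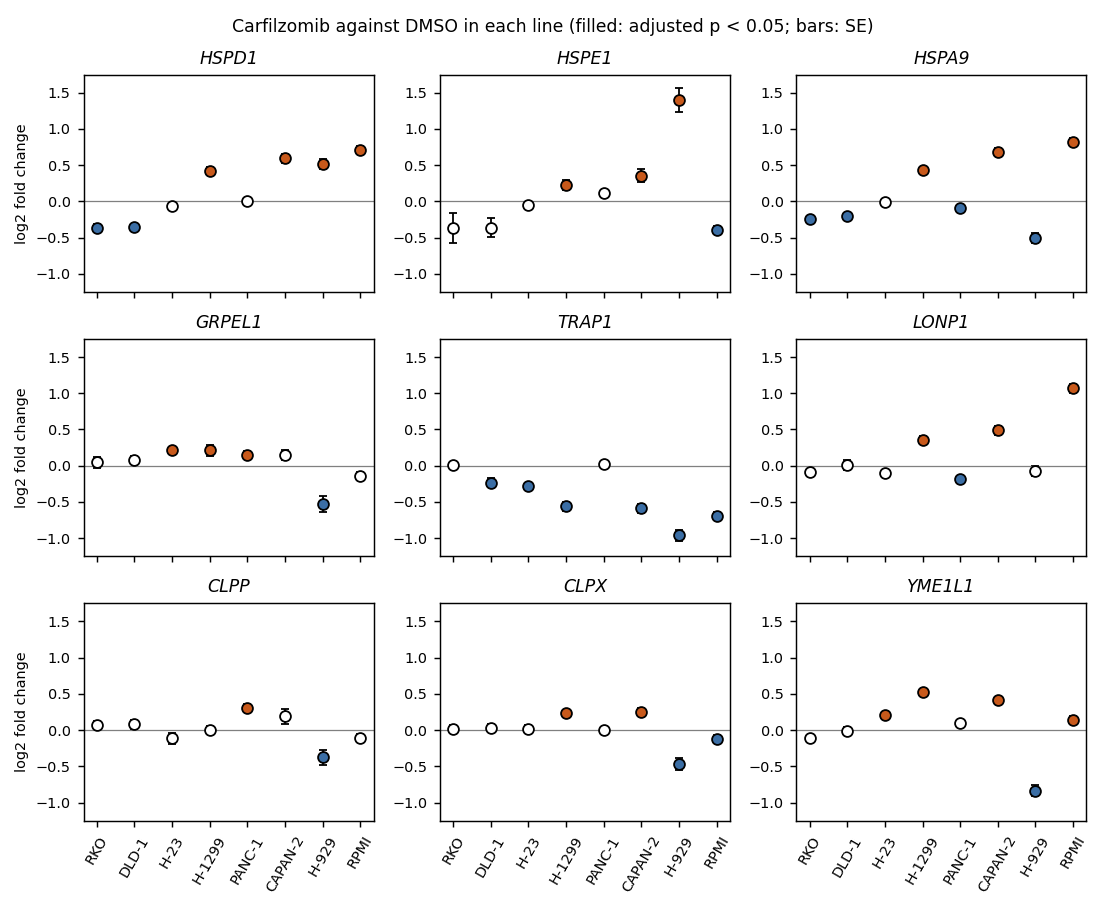
Log2 fold change of carfilzomib against DMSO (vertical axis) of the 9 tested members in each of 8 lines (horizontal axis), with its SE as a bar; filled points are called (adjusted p under 0.05), orange for higher and blue for lower. TRAP1 has 6 filled points below 0 and none above, while HSPE1 in H-929 at 1.40 and LONP1 in RPMI at 1.07 are the highest points.

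In the remaining lines fewer members moved. RKO had 0 higher and 2 lower beside 3.62% and 5.28% of all genes, and DLD-1 had 0 higher and 3 lower beside 10.9% and 12.1%. At an unadjusted p under 0.05 in edgeR these became 0 and 3 in RKO and 0 and 4 in DLD-1, and the DESeq2 Wald test also called 0 higher in both. H-23 had 2 higher and 1 lower beside 17.7% and 16.2%, and PANC-1 had 2 of each beside 20.5% and 18.2%. 

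HSPD1, the chaperonin chamber (ENSG00000144381, chr2:197486581-197516737, minus strand, per GENCODE 29 on GRCh38), fell in both colon lines and rose in 4 others. In RPMI it stood at 1935, 1871 and 1926 CPM in DMSO and at 2857, 3305 and 3208 CPM after carfilzomib. In CAPAN-2 it went from 404, 405 and 357 to 627, 564 and 567 CPM. Treated and control libraries did not overlap in either line, and the lowest treated library exceeded the highest control in each. The log2 fold change was 0.71 ± 0.057 (SE, adjusted p = 1.34e-07) in RPMI, 0.59 ± 0.065 in CAPAN-2, 0.51 ± 0.070 in H-929 and 0.42 ± 0.049 in H-1299.

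In the colon lines HSPD1 went the other way. RKO had 602, 659 and 646 CPM in DMSO and 487, 513 and 482 CPM after carfilzomib, a log2 fold change of -0.36 ± 0.045 (adjusted p = 0.000243). DLD-1 went from 1211 ± 28.9 to 952 ± 10.1 CPM (SD, n = 3), a change of -0.35 ± 0.035. Both colon lines thus had every treated library below every control. H-23 and PANC-1 were not called, at -0.06 and 0.00.

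HSPE1, the chaperonin lid (ENSG00000115541, chr2:197499994-197503457, plus strand), did not follow HSPD1 in every line. H-929 had 9.70, 10.6 and 7.83 CPM in DMSO and 21.2, 27.7 and 25.5 CPM after carfilzomib. That is a 2.63-fold rise (log2 1.40 ± 0.17, adjusted p = 9.56e-06), from 115 to 196 counts per library in DMSO and 210 to 256 after the drug. RPMI moved down, from 164, 162 and 166 to 117, 124 and 133 CPM, with a log2 fold change of -0.39 ± 0.056 (adjusted p = 3.31e-05). The 2 myeloma lines therefore differed in sign at this gene, with no overlap between treatments in either.

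HSPE1 also rose in CAPAN-2 (0.35 ± 0.088, adjusted p = 0.00368) and in H-1299 (0.23 ± 0.070, adjusted p = 0.0129). In H-1299 the libraries overlapped, and 10 of 14 alternative settings called the rise, with adjusted p from 0.000577 to 0.208. It was lost without DMSO replicate 1 (adjusted p = 0.0570) or carfilzomib replicate 3 (0.0703). RKO held 90 to 230 counts in DMSO and gave -0.37 ± 0.20 (adjusted p = 0.309), which is not called. DLD-1 gave -0.37 ± 0.13 (adjusted p = 0.0678), and its DMSO libraries stood at 54.5, 56.8 and 82.6 CPM, with the last above the others. Of 14 alternative settings, 6 called the fall (adjusted p from 0.00801 to 0.177). The change was -0.48 without DMSO replicate 1 (adjusted p = 0.0182), -0.45 without DMSO replicate 2 (0.0437) and -0.15 without DMSO replicate 3, the high library (0.0297).

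**Figure D2:**
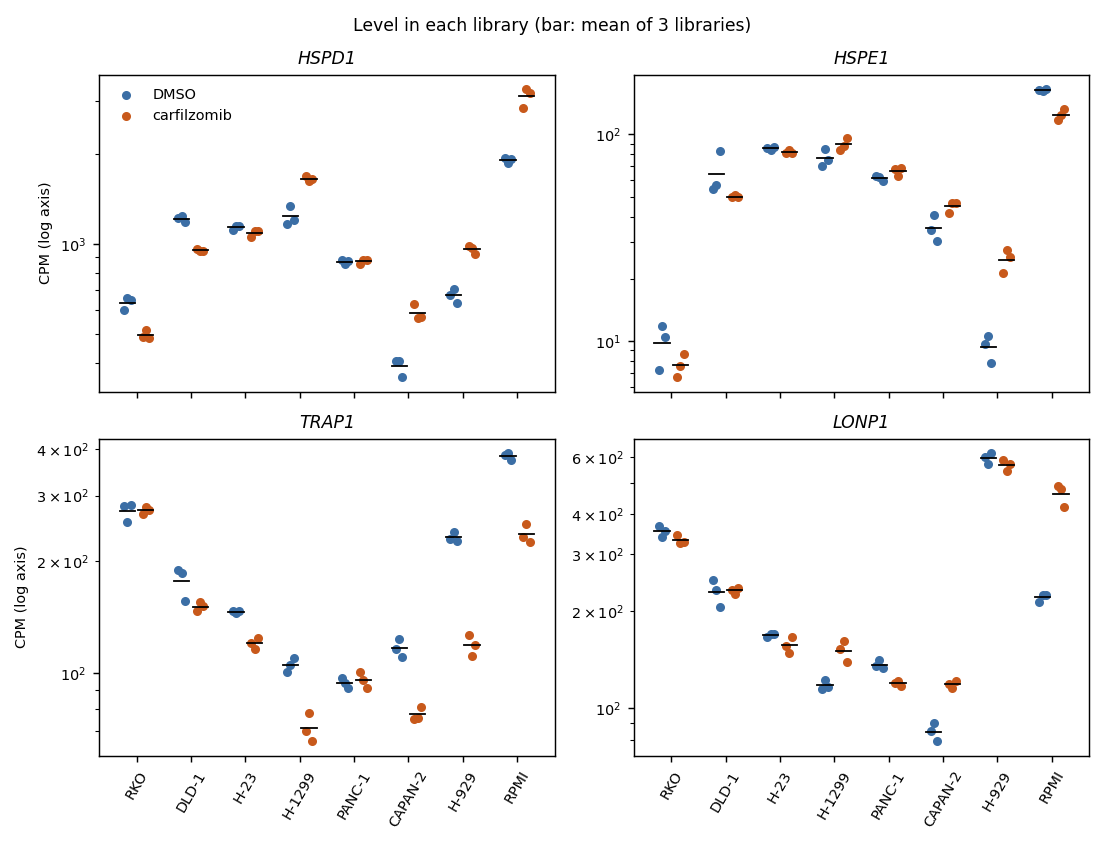
CPM on a log axis (vertical) of HSPD1, HSPE1, TRAP1 and LONP1 in each DMSO (blue) and carfilzomib (orange) library of the 8 lines (horizontal), with the mean of 3 libraries as a bar. The HSPE1 libraries of RKO and the DMSO libraries of H-929 lie well under those of the other lines. Treated H-929 libraries reach 27.7 CPM, close to the lowest CAPAN-2 library in DMSO at 30.6. The treated LONP1 libraries of RPMI stand at 420 to 487 CPM against 213 to 225 in DMSO.

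Several measurements bear on the reading of HSPE1. Its exons overlap those of HSPE1-MOB4 on the same strand (18.6% of exon bases) and of HSPD1 on the other strand (16.4%), and the use of strand in counting is not given in the sources used here. Its 20 pseudogene and read-through rows held 1.71% to 2.61% of the summed counts in RPMI, 16.95% to 30.3% in H-929 in DMSO and 24.88% to 43.04% in RKO in DMSO. With those rows added, the change was 1.27 in H-929 and -0.39 in RPMI. HSPE1 transcripts are short, and the median change of genes with coding transcripts under 1 kb was -0.22 in RPMI, -0.17 in H-1299 and -0.08 in H-929. The classes of 1 to 2, 2 to 4 and over 4 kb had -0.03, -0.01 and -0.01 in RPMI and -0.06, 0.01 and 0.07 in H-1299. In H-929 they had -0.08, -0.09 and -0.11, so the short class did not stand apart there. The part of transcript length in the HSPE1 values was not tested.

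The ratio of HSPD1 to HSPE1 counts within a library, which does not depend on library scaling but is not corrected for length, showed where the partners parted. It went from 11.65 to 25.01 in RPMI and from 71.9 to 38.8 in H-929 (back-transformed means of 3 libraries). It went from 16.2 to 18.5 in H-1299 and from 11.1 to 13.04 in CAPAN-2. Treated and control libraries did not overlap in these 4 lines, and H-929 alone of the 4 moved toward HSPE1. The other lines overlapped, with RKO at 65.9 and 65.0. Over all 8 lines the mean log2 difference was 0.06, not called by a two-sided permutation test of treatment within lines (p = 0.495, adjusted over 5 ratios 0.619).

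**Figure D3:**
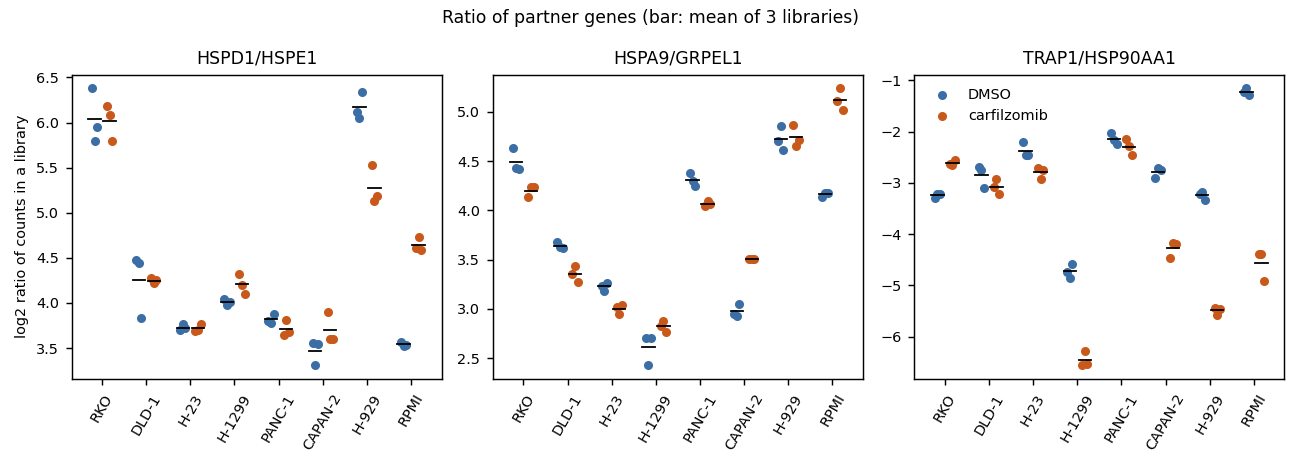
Log2 ratio of counts within each library (vertical axis) for HSPD1 to HSPE1, HSPA9 to GRPEL1 and TRAP1 to HSP90AA1 in 8 lines (horizontal axis), DMSO in blue and carfilzomib in orange, bars at the mean of 3 libraries. The HSPD1 to HSPE1 ratio rises in RPMI and drops in H-929. The mean TRAP1 to HSP90AA1 ratio is lower after carfilzomib in 7 lines, with overlapping libraries in DLD-1 and PANC-1, and higher in RKO.

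HSPA9, the matrix HSP70 (ENSG00000113013, chr5:138553756-138575724, minus strand), was called in 7 lines, higher in 3 and lower in 4. RPMI rose from 841, 822 and 868 to 1504, 1553 and 1406 CPM, a log2 fold change of 0.82 ± 0.053 (adjusted p = 1.49e-08). H-929 fell from 1139, 1207 and 1169 to 889, 823 and 763 CPM, a change of -0.51 ± 0.073 (adjusted p = 5.02e-05). Control and treated libraries were separate in both myeloma lines, in opposite orders.

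Rises of HSPA9 in CAPAN-2 (0.68 ± 0.057) and H-1299 (0.43 ± 0.038) were close in size to those of HSPD1 there. RKO (-0.24 ± 0.038) and DLD-1 (-0.21 ± 0.036) fell. PANC-1 fell by 0.09 on the log2 scale with SE 0.026, which 11 of 14 alternative settings called (adjusted p from 0.00231 to 0.201). It was lost without carfilzomib replicate 1 (0.0520).

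GRPEL1, the exchange factor of HSPA9 (ENSG00000109519, chr4:7058906-7068197, minus strand), was called in 4 lines. H-929 fell from 43.7, 41.6 and 47.8 to 30.4, 32.8 and 29 CPM, with a log2 fold change of -0.53 ± 0.11 (adjusted p = 0.00116) and no overlap. Small rises were called in H-23 (0.22 ± 0.042), H-1299 (0.21 ± 0.073) and PANC-1 (0.15 ± 0.045). In H-1299 the libraries overlapped, and 8 of 14 alternative settings called the rise (adjusted p from 6.14e-05 to 0.196). The libraries whose omission ended it were DMSO replicates 1 and 3 and carfilzomib replicates 1 and 3. In PANC-1, 12 of 14 did (0.0141 to 0.165), and the call was lost without DMSO replicate 1. In H-929 the exchange factor and its HSP70 fell by nearly the same amount, and the ratio of their counts was 26.4 in DMSO and 26.8 after carfilzomib, overlapping between treatments. In RPMI the ratio went from 17.9 to 34.8. It was lower after the drug in RKO, DLD-1, H-23 and PANC-1 and higher in H-1299, CAPAN-2 and RPMI, without overlap in any of these 7 lines. The mean difference over 8 lines was 0.09 on the log2 scale (permutation p = 0.24, adjusted 0.419).

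DNAJA3, the J-domain partner, could not be assessed. Its row carries the identifier ENSG00000276726, which had no match in GENCODE 29, and held 4 counts or fewer in 47 of 48 libraries and 67 in the remaining one, a DMSO library of H-929. A second row of the same identifier ran from 8 to 949 counts and was high in single libraries of a group: CAPAN-2 after carfilzomib had 17, 19 and 616 counts, and H-23 in DMSO had 12, 26 and 600. No direction is read from it.

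TRAP1 (ENSG00000126602, chr16:3651639-3717597, minus strand) was called lower in 6 lines and higher in none. H-929 fell from 229, 240 and 226 to 127, 111 and 119 CPM. RPMI fell from 386, 390 and 375 to 233, 252 and 226 CPM. In both lines the highest treated library was below the lowest control. The log2 fold change was -0.96 ± 0.078 in H-929 (adjusted p = 2.20e-07) and -0.70 ± 0.055 in RPMI (adjusted p = 1.07e-07).

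CAPAN-2 and H-1299, the lines with most rises among the other members, also had lower TRAP1. CAPAN-2 went from 116, 123 and 111 to 75.3, 75.9 and 81.3 CPM (-0.59 ± 0.060), and H-1299 from 100.5, 105 and 110.0 to 70.1, 78.3 and 65.7 CPM (-0.56 ± 0.063). Neither line had overlapping libraries. Smaller falls were called in H-23 (-0.28 ± 0.038) and DLD-1 (-0.23 ± 0.068). The DLD-1 change was called by 8 of 14 alternative settings (adjusted p from 0.000302 to 0.126) and was lost on leaving out any 1 of 5 of its 6 libraries, all but DMSO replicate 3. RKO and PANC-1 were not called, at 0.01 ± 0.047 and 0.03 ± 0.043. Of the exon bases of TRAP1, 28% overlap DNASE1 on the other strand.

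TRAP1 was set beside HSP90AA1, the stress-inducible cytosolic HSP90. The ratio of their counts fell on average by 1.12 on the log2 scale, with a permutation p of 1e-05, the smallest that 100000 resamples can give (5e-05 adjusted over 5 ratios). The largest drop was in RPMI, where HSP90AA1 rose by 2.66 on the log2 scale, and 7 of 8 lines went down. Treated and control libraries overlapped in DLD-1 (-0.23) and PANC-1 (-0.15), and were separate in the other lines. RKO went up by 0.63, with HSP90AA1 falling by 0.62 and TRAP1 not called. Leaving out any 1 line kept the mean between -1.37 and -0.80.

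**Figure D4:**
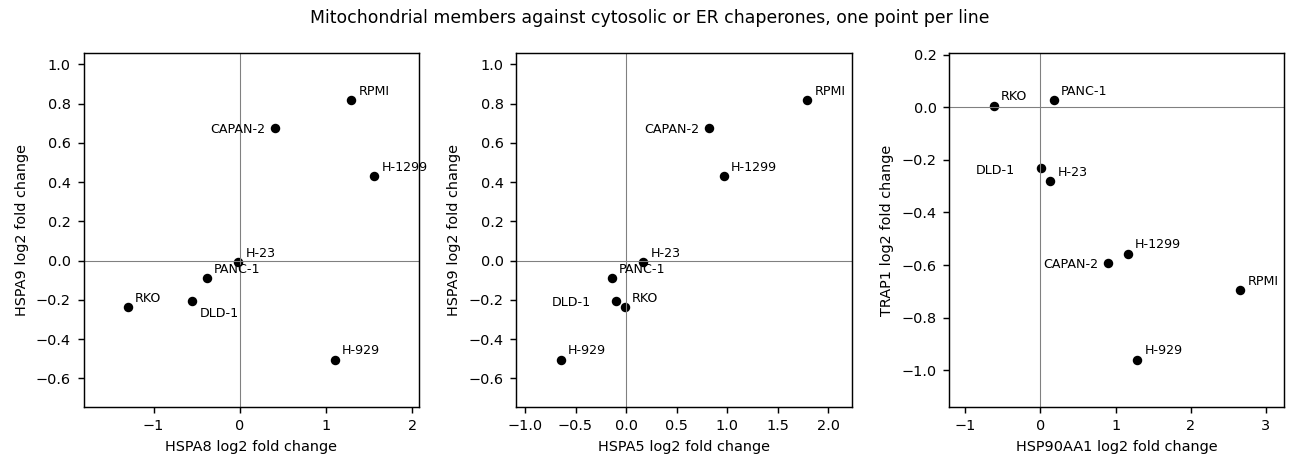
Log2 fold change in each line of a member (vertical axis) against a cytosolic or ER chaperone (horizontal axis), 1 point per line: HSPA9 against HSPA8, HSPA9 against HSPA5 and TRAP1 against HSP90AA1. H-929 lies at the lower left for HSPA9 and HSPA5 and at the lower right for TRAP1 and HSP90AA1.

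LONP1, the Lon protease of the matrix (ENSG00000196365, chr19:5691834-5720572, minus strand), had the largest rise of any protease in any line. RPMI went from 213, 225 and 224 to 487, 479 and 420 CPM, a 2.09-fold rise (log2 1.07 ± 0.062, adjusted p = 5.15e-09). Every treated library there was above every control. CAPAN-2 rose from 84.8, 90.3 and 79.1 to 119, 116 and 122 CPM (0.49 ± 0.060), and H-1299 rose by 0.36 ± 0.055. PANC-1 fell by 0.19 on the log2 scale (SE 0.035, adjusted p = 0.000869). The second myeloma line did not share the rise: H-929 stood at 595 ± 24.6 CPM in DMSO and 567 ± 22.2 CPM after carfilzomib (SD, n = 3), a change of -0.07 ± 0.069 that is not called.

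CLPX, the unfolding ring (ENSG00000166855, chr15:65148219-65185342, minus strand), rose in H-1299 (0.23 ± 0.043) and CAPAN-2 (0.26 ± 0.053). H-929 fell from 111, 121 and 112 to 84.8, 85.6 and 78.5 CPM, with a change of -0.47 ± 0.084 (adjusted p = 0.000309). RPMI gave -0.12 ± 0.051 (adjusted p = 0.0481), called by 6 of 14 alternative settings (9.95e-05 to 0.134). Leaving out DMSO replicate 2 or 3, or carfilzomib replicate 1 or 3, ended it. Its protease chamber CLPP (ENSG00000125656, chr19:6361452-6368910, plus strand) was called in only 2 lines. PANC-1 rose from 21.6, 22.8 and 22.5 to 27.6, 26.2 and 29.2 CPM (0.31 ± 0.056, adjusted p = 0.000738), and H-929 fell from 121, 116 and 112 to 83.2, 79.1 and 106 CPM (-0.38 ± 0.10, adjusted p = 0.00754). The treatments did not overlap in either line. The ratio of CLPX to CLPP counts changed by -0.01 on the log2 scale over the 8 lines (permutation p = 0.824), and was without overlap in PANC-1, where it was lower after the drug, and in H-1299, where it was higher.

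YME1L1, the inner membrane protease (ENSG00000136758, chr10:27110112-27155266, minus strand), rose in 4 lines and fell in 1. H-1299 went from 217, 229 and 227 to 329, 318 and 325 CPM (0.53 ± 0.040, adjusted p = 1.39e-07). H-929 went from 178, 183 and 180 to 99.0, 109 and 95.0 CPM (-0.83 ± 0.081, adjusted p = 1.09e-06). Libraries were separate by treatment in both. CAPAN-2 (0.41 ± 0.053) and H-23 (0.21 ± 0.037) rose as well. In RPMI the value was 0.13 ± 0.053 (adjusted p = 0.0401), called by 8 of 14 alternative settings (0.0114 to 0.372). Leaving out DMSO replicate 2 or 3, or carfilzomib replicate 2 or 3, ended it.

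The scaling of H-929 is less settled than that of the other lines, and its values are read with that in view. One fit of all 48 libraries shifted the median change of all genes in H-929 by -0.16 against the fit of the line alone, and moved the members there by a median of -0.16. A filter at a mean of 50 counts moved them by 0.11. In H-1299, library totals without a composition factor shifted the median of all genes by -0.11. The 8 members called in H-929 kept their direction under each of these settings.

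On the average of the 8 lines, members moved little apart from TRAP1. The average of the 8 log2 fold changes, from the joint fit, was called for 5 of 9 members, 3 higher and 2 lower, beside 19.8% and 23.9% of 22309 genes. TRAP1 averaged -0.45 ± 0.023 (adjusted p = 7.58e-22), LONP1 0.14 ± 0.022, HSPD1 0.14 ± 0.019 and HSPA9 0.07 ± 0.017. The HSPA9 call was lost on leaving out replicate 1 of every group (0.05, adjusted p = 0.0948). CLPX averaged -0.04 ± 0.016 (adjusted p = 0.0186), and 1 of 7 alternative settings called it (0.0397 to 0.759). The error of an average is the spread of replicates within groups and not the spread of lines. A member's average says little alone, since the test that its change differs between lines was called for all 9, beside 67.7% of all genes.

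The study took 2 lines of each tumour type, and the change was compared within each pair in the joint fit. RKO and DLD-1 differed at 0 of 9 members, beside 4.04% of all genes. At an unadjusted p under 0.05 in edgeR, 1 member differed, and DESeq2 was not run for this contrast. H-1299 and H-23 differed at 6 members, beside 30.8%, and CAPAN-2 and PANC-1 at 6, beside 24.9%. The same 6 symbols were called in both pairs: HSPD1, HSPA9, LONP1, CLPX and YME1L1 were more positive in H-1299 and CAPAN-2, and TRAP1 was more negative. The share of all genes called in both pairs was not counted. With a replicate left out, 4 to 5 members differed between H-1299 and H-23. In H-1299 against H-23, 2 of 7 alternative settings called CLPX (adjusted p from 0.00164 to 0.267). There YME1L1 was lost without replicate 1 (0.20, adjusted p = 0.110) and TRAP1 without replicate 3 (-0.20, adjusted p = 0.114). CLPX in CAPAN-2 against PANC-1 was lost without replicate 2 (0.24, adjusted p = 0.0570). HSPA9 showed the largest of these differences, 0.79 ± 0.069 between CAPAN-2 and PANC-1 (adjusted p = 1.39e-12).

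The myeloma pair differed at all 9 members, beside 40.5% of all genes. HSPE1 was 1.70 ± 0.18 more positive in H-929 than in RPMI (adjusted p = 1.38e-10). The other 8 were more negative in H-929, led by HSPA9 (-1.41 ± 0.069), LONP1 (-1.22 ± 0.086) and YME1L1 (-1.05 ± 0.072). The difference was -0.35 for both TRAP1 and CLPP, and 2 of 7 alternative settings called that of CLPP (adjusted p from 0.000592 to 0.220). Without replicate 2, the differences of HSPD1 (-0.18, adjusted p = 0.194) and TRAP1 (-0.23, adjusted p = 0.109) were also not called, which left 6 members. Plasma cell marker sums fell from 7140 to 4056 CPM in H-929 and from 3039 to 1424 CPM in RPMI. Their part in the members' values was not tested.

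In DMSO the lines differed in the levels of these genes, with CPM scaled over all 48 libraries. HSPE1 had the widest range, from 8.82 ± 2.16 CPM in RKO and 10.1 ± 1.60 CPM in H-929, which overlapped, to 185 ± 5.33 CPM in RPMI (SD, n = 3). Those lines set apart the low end: CAPAN-2 was next at 38.1 ± 5.54 CPM, and DLD-1, PANC-1, H-23 and H-1299 lay between 61.2 and 83.1 CPM. Genes with coding transcripts under 1 kb were also lower in RKO (median log2 -0.38 against the other lines) and higher in RPMI (0.47), beside -2.82 and 1.59 for HSPE1, while in H-929 they were at -0.03 beside -2.63. HSPD1 ran from 420 ± 28.8 CPM in CAPAN-2 to 2153 ± 59.7 CPM in RPMI, and no neighbours in that order overlapped.

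**Figure D5:**
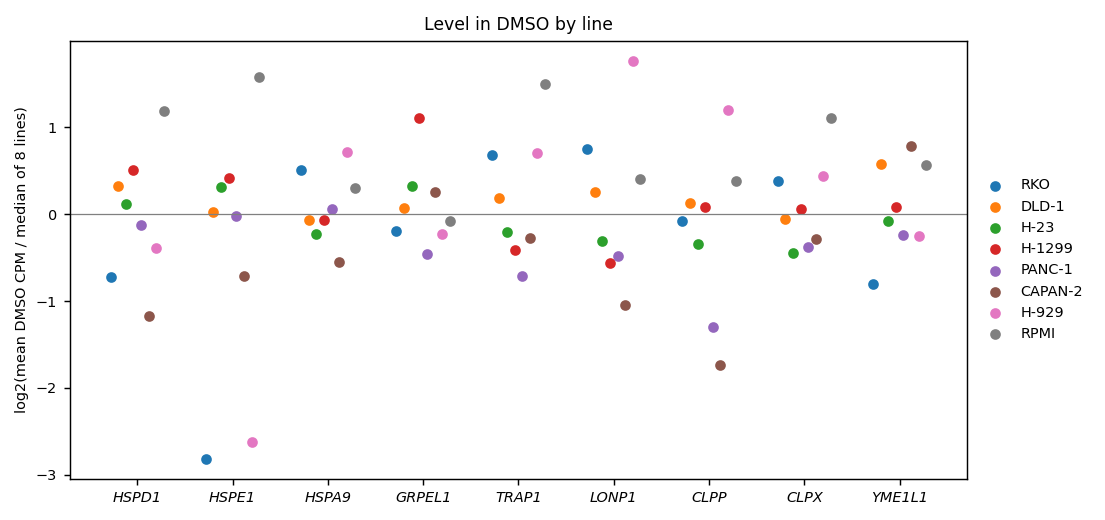
Log2 of the mean DMSO CPM of each line over the median of the 8 lines (vertical axis) for the 9 tested members (horizontal axis), 1 colour per line. HSPE1 in RKO and H-929 and CLPP in CAPAN-2 are the low points, and LONP1 in H-929 is the highest.

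The other members spread less than HSPE1, though CLPP (7.62-fold) and LONP1 (6.99-fold) spread more than HSPD1 (5.12-fold). HSPA9 ran 2.40-fold from CAPAN-2 (524 ± 31.7 CPM) to H-929 (1261 ± 40.6 CPM), with H-1299 and DLD-1 overlapping in the order. GRPEL1 ran from 40.6 ± 1.59 CPM in PANC-1 to 120 ± 13.9 CPM in H-1299, and its middle lines overlapped. TRAP1 was lowest in PANC-1 (93.4 ± 2.64 CPM) and highest in RPMI (432 ± 4.96 CPM). The myeloma line H-929 led LONP1, at 640 ± 22.6 CPM against 91.6 ± 6.05 CPM in CAPAN-2, and led CLPP, at 125 ± 5.53 against 16.4 ± 2.35 CPM in CAPAN-2. CLPX ran from 67.1 ± 2.88 CPM in H-23 to 196 ± 6.55 CPM in RPMI. YME1L1 ran from 132 ± 7.37 CPM in RKO to 396 ± 14.99 CPM in CAPAN-2, with DLD-1 and RPMI overlapping below CAPAN-2. No single line was highest throughout: RPMI led HSPD1, HSPE1, TRAP1 and CLPX.

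Across the 8 lines, and as a description only, some members had similar patterns of change. The lines share no libraries, but the members of a line share its libraries and scaling. CLPX with YME1L1 had a Pearson r of 0.92, GRPEL1 with CLPX 0.91 and HSPA9 with LONP1 0.89. HSPD1 with HSPE1 had 0.47 and HSPD1 with TRAP1 -0.84. Of 10956 other genes, the 5 most like HSPD1 were its pseudogene HSPD1P1 (0.99), TPT1, TMEM86A, UBB and MTO1 (0.97), while HSPE1 ranked 2550. Whether the HSPD1P1 row holds reads of HSPD1 was not tested, so its r is not read as likeness to a separate gene. The 5 most like LONP1 were CLEC4A (0.98), DCTN2, PCGF5, SYVN1 and TMCO3 (0.97). HSPA5, the ER HSP70, ranked 45 for LONP1 with r = 0.93, and the cytosolic HSP90AA1 and HSPA8 ranked 337 (0.84) and 1621 (0.61). For HSPD1 the order was reversed: HSP90AA1 ranked 111 (0.90), HSPA8 171 (0.88) and HSPA5 1852 (0.57).

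Cytosolic and ER chaperones were set beside HSPA9. HSPA5 and HSP90B1, both of the ER, rose in RPMI, CAPAN-2 and H-1299 and fell in H-929, as HSPA9 did. HSPA5 had 1.79, 0.82, 0.97 and -0.65 in those lines in that order. Both ER genes also fell with HSPA9 in PANC-1. They parted from it elsewhere. In DLD-1, where HSPA9 fell, HSP90B1 rose by 0.26 and HSPA5 was not called. In RKO, where HSPA9 fell, neither was called. In H-23, where HSPA9 was not called, HSPA5 (0.17) and HSP90B1 (0.09) were called higher. HSPA8, the constitutive cytosolic HSP70, had the sign of HSPA9 in most lines. It fell with HSPA9 in RKO (-1.30), DLD-1 (-0.55) and PANC-1 (-0.39), and rose with it in H-1299 (1.56), CAPAN-2 (0.41) and RPMI (1.29). In H-929 it rose by 1.10 where HSPA9 fell. The ratio of HSPA9 to HSPA8 counts went up in RKO from 0.992 to 2.06 and down in H-929 from 0.346 to 0.114, and over 8 lines its mean log2 difference was -0.15 (permutation p = 0.251). Without RKO it was -0.33 (adjusted p = 0.0384), and without H-929 it was 0.05 (adjusted p = 0.806). Of the 9 listed cytosolic and ER genes, 7 were higher and 1 lower on the average, beside 19.8% and 23.9% of all genes. Their median was 0.22 beside 0.02 for all genes, and DNAJB1 had the largest average, 1.10 ± 0.027.

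The rest of the mitochondrial folding, proteolysis and import machinery was counted from lists chosen with earlier results of these data known. Of 9 other mitochondrial chaperones and HSPA9 cofactors, 2 were higher and 4 lower on the average, beside 19.8% and 23.9% of all genes. CLPB, a disaggregase of the intermembrane space, rose in 6 lines (average 0.34 ± 0.024), and HSCB, an iron-sulfur cluster co-chaperone of HSPA9, in 5 (0.41 ± 0.045). Of 13 other proteases and peptidases tested, 4 were higher and 6 lower. PITRM1, which degrades cleaved presequences, rose in 7 lines (0.41 ± 0.019), and MIPEP, which trims presequences, fell in 5 (-0.47 ± 0.040).

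Of 22 import genes tested, 3 were higher and 17 lower on the average, beside 19.8% and 23.9% of all genes. Their median was -0.15 beside 0.02 for all genes. They did not move alike: 14 were higher in PANC-1, beside 20.5% of all genes, and 15 were lower in RPMI, beside 32.2%. TOMM20, a receptor of the outer membrane, fell in 4 lines (average -0.34 ± 0.019). MTX1, whose identifier has 2 rows, rose in 5 lines (average 0.26 ± 0.032). Among 14 nuclear genes of general mitochondrial content, 2 were higher and 10 lower, beside the same 19.8% and 23.9% of all genes. VDAC1 fell in 4 lines, by 0.95 and 1.08 on the log2 scale in H-929 and RPMI, and MDH2 fell in 5 (average -0.34 ± 0.020). In each myeloma line 10 of the 14 were lower, where 26.2% of all genes were lower in H-929 and 32.2% in RPMI, and TRAP1 fell in both. The part of mitochondrial content in the members' values was not tested. Of 5 stress transcription factors tested, 2 were higher on the average, DDIT3 (CHOP) and CEBPB, beside 19.8% of all genes. DDIT3 rose in 6 lines, with log2 fold changes of 3.24 in H-929 and 3.28 in RPMI, and fell in DLD-1 (-0.69). The part of these factors in the members' values was not tested.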

How the data were processed

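RNA of 8 cell lines was counted in 48 libraries. Per the labels' protocols, libraries were made with a stranded total RNA kit. The authors deposited unnormalized whole-number counts for each gene, judged from the values. The submitters' processing notes list bcl2fastq 2.19, FastQC, Trimmomatic, HISAT2, DESeq2 and hg38, with no role or order. The counting program, annotation and use of strand are not given in the sources used here.

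From these counts, each line was fitted alone with edgeR 4.0.16 (R 4.3.3, limma 3.58.1): filterByExpr, TMM scaling and the quasi-likelihood test of carfilzomib against DMSO, with Benjamini-Hochberg adjustment over all genes tested and a threshold of 0.05. One fit of all 48 libraries gave the average of the 8 lines, the test that lines differ and the differences within tumour types. Log2 ratios of counts (0.5 added) were tested by permuting treatment within lines, 100000 times, two-sided, and adjusted over 5 ratios. Alternatives were DESeq2 1.42.0 (size factors or Wald test), library totals, omitting the filter, filtering at a mean of 50 counts, the joint fit, a replicate block, pseudogene rows added, and each replicate or line left out. The fits were also run on simulated data that gave every gene the same dispersion. The uneven spread of the real replicates was not simulated, and no result rests on that run.

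The members and lists were chosen with earlier results of these data known. Named genes were all members and, from each other list, those (at most 2) with the largest average change among the called, with fixed cytosolic and ER counterparts. Likeness was Pearson's r of the 8 log2 fold changes. The checks of transcript length, exon overlap, the shift between fits and the second DNAJA3 row were chosen after seeing the data. No replicate pair agreed within sampling noise (lowest chi-square divided by its degrees of freedom 3.48). Of 33892 row identifiers, 29680 matched GENCODE 29. The 13 mitochondrially encoded mRNAs were not analysed here.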

Additional observations from a re-analysis of the deposited data

Results flagged for a closer look

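The change after carfilzomib differed between the 8 lines for each of the 9 tested members, by edgeR's quasi-likelihood F test of the joint fit. F was 100.68 for HSPA9, 77.4 for YME1L1, 52.4 for HSPD1, 48.1 for LONP1, 37.1 for TRAP1, 34.6 for CLPX, 17.5 for HSPE1, 15.2 for GRPEL1 and 9.29 for CLPP.

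Within tumour types, the difference of log2 fold changes was tested in the same fit. Between H-1299 and H-23 it was 0.43 for HSPD1, 0.39 for HSPA9, 0.41 for LONP1, 0.16 for CLPX, 0.27 for YME1L1 and -0.32 for TRAP1. Between CAPAN-2 and PANC-1 it was 0.62 for HSPD1, 0.79 for HSPA9, 0.70 for LONP1, 0.27 for CLPX, 0.34 for YME1L1 and -0.59 for TRAP1. Between H-929 and RPMI it was 1.70 for HSPE1, -0.28 for HSPD1, -1.41 for HSPA9, -0.47 for GRPEL1 and -0.35 for TRAP1. The proteases of that pair differed by -1.22 for LONP1, -0.35 for CLPP, -0.43 for CLPX and -1.05 for YME1L1.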

How the results depend on the processing

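No member called in a line changed sign under any alternative run. Counts of called members that moved by over 1.5 times were these. In H-23, 3 were lower by library totals and 2 with no filter, with a mean of at least 50 counts or by DESeq2. In PANC-1, 1 was lower with no filter, and the joint fit gave 1 higher and 1 lower. With copies added, the summed DNAJA3 rows were called higher in DLD-1 (log2 2.27, adjusted p = 0.0289 in edgeR), CAPAN-2 (3.42, 0.00940) and RPMI (3.82, 0.000273), so that 1, 7 and 5 were higher there. These sums carry the single high libraries of the second row. On the average, 1 was lower by DESeq2 size factors, library totals or a mean of at least 50 counts, and 5 were higher by library totals. Smaller moves included 5 higher in H-1299 by library totals or the joint fit, and in DLD-1 2 lower by library totals and 4 with no filter or the joint fit. In RPMI lower calls ran from 2 to 4, and 8 members differed between H-929 and RPMI by DESeq2 size factors, library totals or a mean of at least 50 counts. By library totals the share of higher among all genes called went from 40.6% to 60.9% in RKO and from 47.5% to 60.3% in DLD-1.

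Leaving out replicates gave 1 to 3 higher and 1 to 2 lower in PANC-1, 1 to 3 lower in H-23, 2 to 3 higher and 1 to 2 lower on the average, and 0 to 1 differing between RKO and DLD-1. It also gave 5 to 7 higher in H-1299, 6 to 7 higher in CAPAN-2, 2 to 4 lower in DLD-1, and 3 to 4 higher and 2 to 3 lower in RPMI. Members differing numbered 4 to 5 for H-1299 and H-23, 5 to 6 for CAPAN-2 and PANC-1 and 6 to 9 for H-929 and RPMI. The remaining counts did not move. Values near 0 that were not called spanned it: CLPP in H-1299 (-0.038 to 0.058), CLPX in H-23 (-0.024 to 0.033), PANC-1 (-0.030 to 0.030) and RKO (-0.0077 to 0.045), GRPEL1 in RKO (-0.0090 to 0.096), HSPA9 in H-23 (-0.034 to 0.0020), HSPD1 in PANC-1 (-0.015 to 0.0099), LONP1 in DLD-1 (-0.062 to 0.075), TRAP1 in PANC-1 (-0.012 to 0.057) and RKO (-0.042 to 0.033), and YME1L1 in DLD-1 (-0.064 to 0.027). Other settings also turned uncalled values. Library totals gave 0.027 for YME1L1 in DLD-1, -0.0075 for CLPX in H-23, -0.107 for CLPP in H-1299, -0.0016 for HSPD1 in PANC-1, and averages of 0.017 for GRPEL1 and 8.94e-05 for CLPP. No filter gave -0.0019 for CLPX in H-23 and -0.0044 for CLPP in H-1299. The joint fit gave -0.0034, -0.066 and -0.0058 for CLPX in H-23, CLPP in H-1299 and HSPD1 in PANC-1. HSPD1 in PANC-1 was -0.0032 by DESeq2 size factors and -0.0029 by its Wald test. A mean of at least 50 counts gave 0.039 for LONP1 in H-929 and an average of 0.0047 for GRPEL1. The cause was not tested.

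Of the ratios, HSPA9 to HSPA8 was -0.33 without RKO (permutation adjusted p = 0.0384) and 0.052 without H-929. CLPX to CLPP was 0.033 without PANC-1 and 0.0017 without H-929, and spanned -0.050 to 0.056 over all omissions. HSPD1 to HSPE1 was -0.085 and HSPA9 to GRPEL1 -0.039 without RPMI.

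With the replicate number as a block, 4 members were lower in DLD-1, 3 in H-23 and 2 in RPMI, and 5 differed between H-1299 and H-23; the other counts did not move. The numbers did not pair the samples by the check used (correlations of deviations from -0.11 to 0.10), and each sample was closest to its own number in H-23 and H-1299 only. Depth limits HSPE1 most among the tested members, with as few as 90 counts in an RKO DMSO library.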
